A study of Mus musculus with 9 samples.

Results

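The genes described here are 10 transcriptional targets of p53, namely Cdkn1a, Mdm2, Ccng1, Bax, Phlda3, Trp53inp1, Eda2r, Sesn2, Gdf15 and Aen. They were taken by symbol as a list of known p53 targets. All 10 were found among the 54532 gene identifiers counted, and all 10 passed the filter on low counts that left 16646 genes for testing. RNA was measured in 9 kidney libraries, 3 from wild-type (WT) mice, 3 from Trex1-/- mice given PBS and 3 from Trex1-/- mice given SN-011, all labelled C57BL/6J. TREX1 is an exonuclease that degrades DNA in the cytosol. SN-011 blocks STING, which relays detection of such DNA to interferon genes. Per the study's methods the Trex1-/- mice were 1 month old at the start and were injected into the peritoneum daily for 2 weeks, with SN-011 at 10 mg/kg or with vehicle, which was PBS with a detergent. The deletion is present in every cell of these mice, both knockout groups received injections, and the methods give an age range at purchase for WT mice, with no treatment or age at sampling given for those of these libraries.

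p53 is a transcription factor that is held at a low level by the ubiquitin ligase Mdm2 and is stabilised when kinases such as ATM and ATR report DNA damage. It then binds DNA as a tetramer and raises genes that stop the cell cycle, repair DNA, adjust metabolism or start cell death, and it raises Mdm2, which closes a feedback loop. In kidney, targets such as Cdkn1a are known to rise in tubule cells after toxic or ischaemic injury, and several of them also answer to stress pathways other than p53.

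A p53 binding site is built from a pair of half-sites. Each half-site has 3 purines, a C, 2 bases that are A or T, a G and 3 pyrimidines, and reads the same on both strands. Only exact matches to these letters were counted here, so a half-site with a mismatch is not marked. Promoter sequences from RefSeq (GRCm38.p6, 250 bases before to 50 bases after a start site) were at hand for 9 of the 10 genes, all except Trp53inp1, and 5 of the 9 held a half-site. Over the same window, 8.36% of 32851 promoters held 1, which is 9.55% of the 27025 genes with a promoter. The windows below are shown because they carry the letters that p53 reads, with half-sites in capitals and each sequence given 5′ to 3′ on the strand of its gene.
Cdkn1a, chr17:29090886-29090957, plus strand: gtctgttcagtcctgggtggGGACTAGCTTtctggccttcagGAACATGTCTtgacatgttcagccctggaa
Ccng1, chr11:40755442-40755491, minus strand: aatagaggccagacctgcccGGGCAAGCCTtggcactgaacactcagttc
Mdm2, chr10:117710915-117710964, minus strand: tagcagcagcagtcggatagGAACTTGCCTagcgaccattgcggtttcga
Bax, chr7:45467070-45467119, minus strand: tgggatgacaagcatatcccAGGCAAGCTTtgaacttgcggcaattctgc
Aen, chr7:78895927-78895956, plus strand: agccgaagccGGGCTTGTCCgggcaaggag

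The half-sites of Cdkn1a began 73 and 51 bases before the start with 12 bases between them, and among all promoters of this length 0.0731% held a pair with at most 13 bases between its members. Single exact half-sites began 185 bases before the start of Ccng1, 186 before that of Mdm2 and 201 before that of Bax. The bases directly before the half-site of Ccng1, and those directly after the second of Cdkn1a, come close to the pattern. They are no exact match and were not counted. The half-site of Aen began 121 bases before the second of its listed starts. No exact half-site was found in the windows of Phlda3, Sesn2, Gdf15, Eda2r or the second start of Cdkn1a. A search of these exact letters says nothing of half-sites with a mismatch or of sites elsewhere.

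The libraries held 16118813 to 21928965 counts. Trex1 was listed at 0 counts in all 9 libraries, WT included, so its level checks no label. Kidney identity was clear from the tubule markers, whose summed level was 15650 to 19000 normalized CPM, the count of a gene scaled to a fixed library size. Transcripts of Y-linked genes were present in all 3 PBS libraries (162 to 176 CPM), in SN-011 replicate 2 (188 CPM) and in WT replicate 3 (153 CPM), and were at most 0.378 CPM in the other 4, which carried Xist at 434 CPM or more. The labels give no sex. SN-011 replicate 2 stood farthest from its group: 7.68% of tested genes lay at least 2-fold from the mean of the other 2 libraries, against 1.33% to 5.08% for the other libraries. CPM values here carry TMM factors, and log2 differences come from 1 edgeR fit over all 9 libraries.

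Between genes, levels were compared per kilobase of exon. In WT kidney Ccng1 was the most abundant at 48.6 ± 7.90 CPM per kilobase (SD, n = 3), followed by Bax at 24.5 ± 1.71, Sesn2 at 20.3 ± 1.67 and Mdm2 at 12.3 ± 0.673. The ranges of these 4 genes did not overlap each other. Cdkn1a at 9.35 ± 1.74, Phlda3 at 8.53 ± 2.82 and Gdf15 at 7.91 ± 2.89 CPM per kilobase overlapped, and Phlda3 and Gdf15 also overlapped Trp53inp1 at 6.04 ± 1.09. Below them came Aen at 3.42 ± 0.560 and, far lower, Eda2r at 0.116 ± 0.0575 CPM per kilobase, a gene with only 7 to 29 counts per library.

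The first comparison asks how the targets stand in the kidney of the autoinflammatory Trex1-/- mice given PBS against WT. In these kidneys 9 of the 10 differences were above 0, and the median difference was 0.33 on the log2 scale against 0.003 over all tested genes. Gdf15, Aen, Trp53inp1, Cdkn1a and Ccng1 had every PBS library above every WT library, and Sesn2 had every PBS library below. These 6 of 10 compare with 25.3% of tested genes whose groups did not overlap, 13% with PBS higher and 12.3% with PBS lower. None of the 10 passed an edgeR adjusted p of 0.05, which 1.88% of tested genes did, and 3 of 10 had an unadjusted p under 0.05, against 15.2% of tested genes. All 3 PBS libraries carried Y-linked transcripts and only 1 WT library did. With the presence of Y-linked transcripts as a term in the fit, the median difference of the 10 genes was 0.09.

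Among the genes of cell cycle arrest, Cdkn1a (chr17:29090976-29100727) encodes p21, the inhibitor of cyclin-dependent kinases. Its level was 34.0, 39.0 and 26.7 CPM in the WT libraries, 49.7, 42.6 and 43.3 CPM in the PBS libraries and 22.01, 89.2 and 27.0 CPM in the SN-011 libraries. The PBS libraries were all above WT, while the SN-011 libraries spanned the whole range, with replicate 2 the highest and replicate 1 the lowest of the 9. PBS exceeded WT by 0.44 on the log2 scale (SE 0.43, 95% interval -0.51 to 1.39, edgeR adjusted p = 0.673), so a difference was not resolved. With the Y-linked term this difference was -0.22. Of its exonic bases, 7.68% are shared with a gene on the opposite strand, and the strand setting of the counting was not given.

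Ccng1 (chr11:40748552-40755311) encodes cyclin G1, which takes part in the control of Mdm2. The WT libraries had 160, 150 and 202 CPM, the PBS libraries 211, 218 and 245 CPM and the SN-011 libraries 186, 243 and 192 CPM. The 3 PBS values were above the 3 WT values, and the WT library nearest to them was replicate 3, the one with Y-linked transcripts. The difference of PBS over WT was 0.40 in log2 units (SE 0.14, 95% interval 0.08 to 0.71, edgeR adjusted p = 0.215), and it was 0.16 once the Y-linked term was added.

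**Figure D1:**
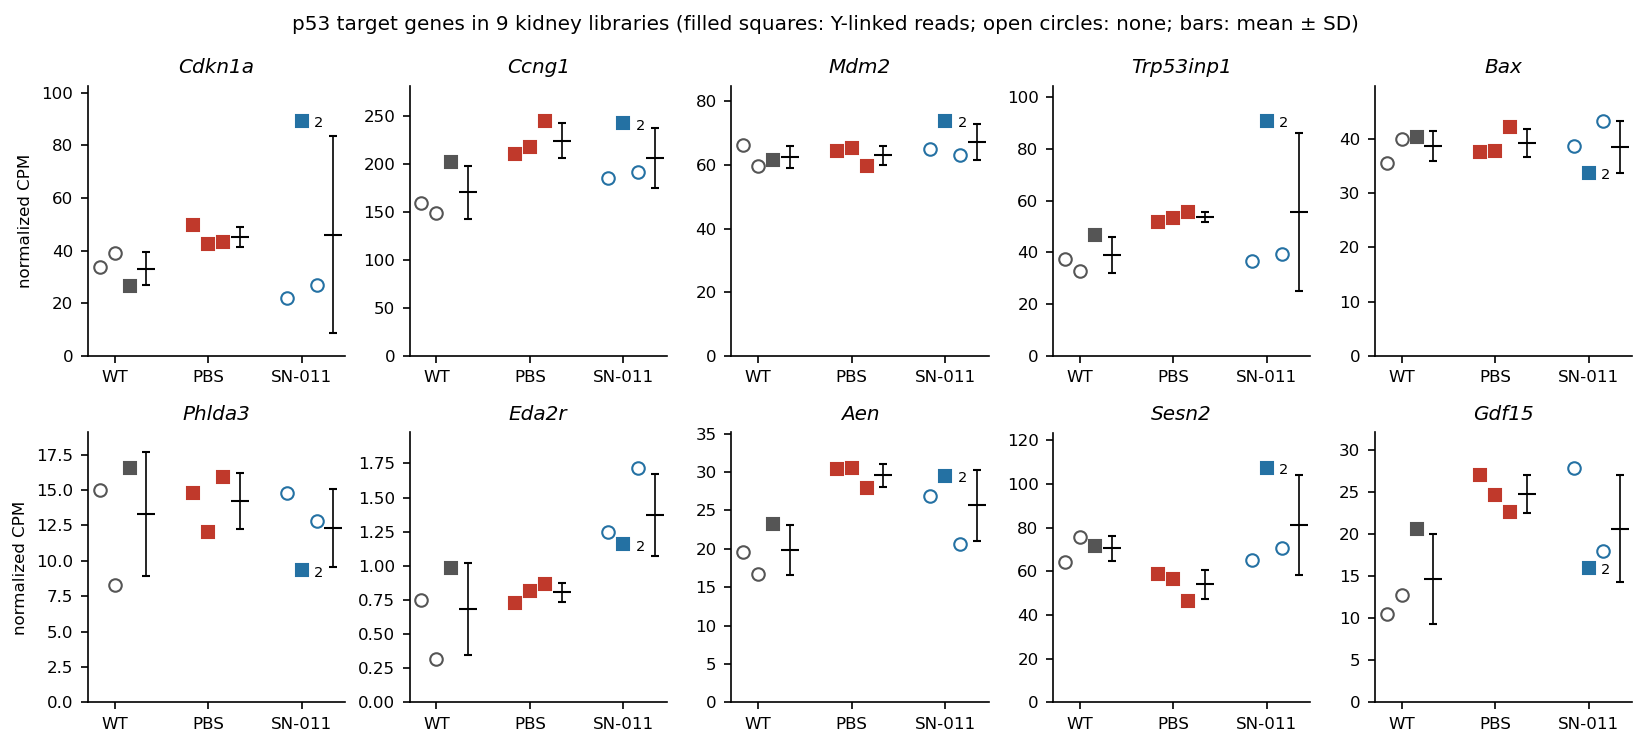
Normalized CPM of the 10 p53 target genes in 9 kidney libraries, 1 panel a gene, with points for libraries (filled squares with Y-linked transcripts, open circles without, SN-011 replicate 2 marked by its number) and bars for the mean ± SD of 3 libraries. Each vertical axis starts at 0. The SN-011 library with Y-linked transcripts is the highest of 9 for Cdkn1a, Mdm2, Trp53inp1 and Sesn2, with Cdkn1a at 89.2 CPM against 22.01 and 27.0 CPM in the other SN-011 libraries.

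Of the genes that feed back on p53, Mdm2 (chr10:117688875-117710758) encodes the ligase that marks p53 for degradation. It was even across the study, at 66.3, 59.7 and 61.5 CPM in WT, 64.3, 65.3 and 59.7 CPM in PBS and 65.0, 73.8 and 63.2 CPM in SN-011 libraries. The WT and PBS ranges covered each other, and the difference of PBS over WT was 0.01 on the log2 scale (95% interval -0.18 to 0.20, edgeR adjusted p = 0.958), a sign that turns under upper-quartile scaling. The upper bound of that interval is a 1.153-fold change.

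Trp53inp1 (chr4:11156431-11174379) encodes a nuclear protein that promotes p53 phosphorylation and also acts in autophagy. Its level was 37.5, 32.9 and 46.8 CPM in WT, 51.9, 53.2 and 55.7 CPM in PBS and 36.7, 90.8 and 39.4 CPM in SN-011 libraries. The PBS libraries were close together and above WT, and again SN-011 replicate 2 was far above the other 2 of its group. PBS exceeded WT by 0.46 on the log2 scale (SE 0.30, 95% interval -0.20 to 1.11, edgeR adjusted p = 0.504), and this was -0.11 with the Y-linked term.

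Among the genes of cell death, Aen (chr7:78895854-78911209) encodes an apoptosis-enhancing nuclease. It was at 19.6, 16.7 and 23.2 CPM in WT, 30.4, 30.6 and 27.9 CPM in PBS and 26.9, 29.5 and 20.6 CPM in SN-011 libraries. The PBS libraries lay above all WT libraries, and the SN-011 libraries lay between, overlapping both. At 0.58 on the log2 scale (SE 0.15, 95% interval 0.24 to 0.92), Aen had the smallest p of the 10 in PBS against WT, and its edgeR adjusted p was 0.0953. That p ranged from 0.0241 to 0.362 over 19 other settings and passed the threshold in 5 of them, among them the fit without SN-011 replicate 2 (edgeR adjusted p = 0.0442). The highest value came with the Y-linked term, where the difference was 0.37.

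Bax (chr7:45461697-45466898) encodes a protein that permeabilises the outer mitochondrial membrane. Its levels were 35.6, 40.0 and 40.4 CPM in WT, 37.6, 37.7 and 42.2 CPM in PBS and 38.7, 33.6 and 43.2 CPM in SN-011 libraries. The 3 groups overlapped throughout, and the log2 difference of PBS over WT was 0.02 (95% interval -0.22 to 0.26, edgeR adjusted p = 0.954), with a sign that turns under upper-quartile scaling. Of the exonic bases of Bax, 12.2% are shared with the predicted gene Gm45808 on the same strand.

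Phlda3 (chr1:135766119-135769136) encodes a protein that competes with the kinase Akt for membrane lipids. It stood at 15.02, 8.30 and 16.6 CPM in WT, 14.8, 12.01 and 15.9 CPM in PBS and 14.8, 9.32 and 12.8 CPM in SN-011 libraries. The groups overlapped, and PBS differed from WT by 0.10 on the log2 scale (95% interval -0.46 to 0.66, edgeR adjusted p = 0.885).

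Eda2r (chrX:97333840-97377216) encodes a receptor of the tumour necrosis factor receptor family. Its levels were near the floor of detection, at 0.753, 0.316 and 0.982 CPM in WT, 0.730, 0.816 and 0.869 CPM in PBS and 1.24, 1.16 and 1.72 CPM in SN-011 libraries. It is the member for which the SN-011 libraries were all above both other groups. PBS differed from WT by 0.26 on the log2 scale (95% interval -0.65 to 1.17, edgeR adjusted p = 0.811).

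The stress signals Gdf15 and Sesn2 had differences of opposite sign in PBS against WT. Gdf15 (chr8:70629393-70632456) encodes a secreted factor of the TGF-beta family that rises in many kinds of cell stress. It was at 10.5, 12.8 and 20.7 CPM in WT, 27.1, 24.7 and 22.7 CPM in PBS and 28.0, 16.03 and 18.0 CPM in SN-011 libraries. The PBS libraries were above all WT libraries, of which replicate 3 was the nearest. The difference of 0.77 on the log2 scale was the largest of the 10 in PBS against WT (SE 0.26, 95% interval 0.19 to 1.34, edgeR adjusted p = 0.191). Without WT replicate 3 it was 1.09 (edgeR adjusted p = 0.0384). The Y-linked term brought it to 0.66.

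Sesn2 (chr4:132492032-132510501) encodes sestrin 2, a leucine sensor that restrains the growth kinase complex mTORC1 and is also induced by ATF4. It was at 64.3, 75.8 and 71.5 CPM in WT, 58.8, 56.7 and 46.6 CPM in PBS and 65.3, 108 and 70.7 CPM in SN-011 libraries. The PBS libraries were the 3 lowest of the 9. PBS was below WT by a log2 difference of -0.38 (SE 0.18, 95% interval -0.77 to 0.004, edgeR adjusted p = 0.332), and by -0.63 with the Y-linked term.

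**Figure D2:**
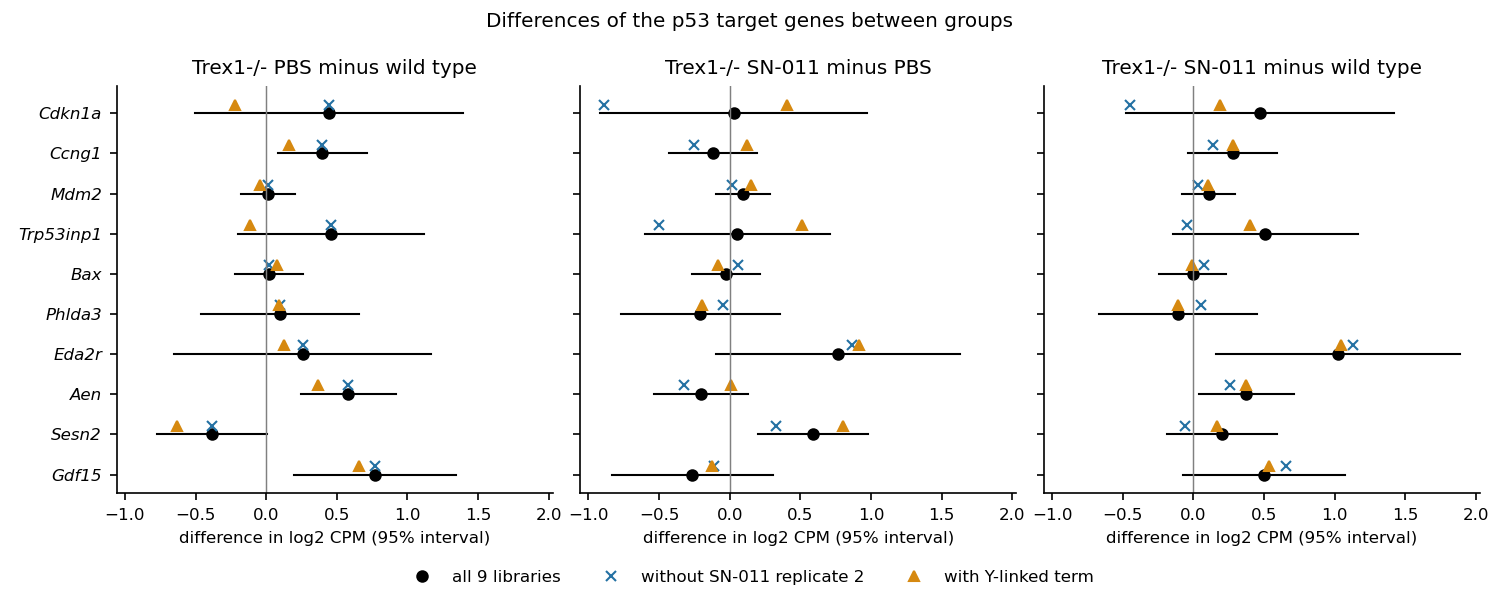
Differences in log2 CPM of the 10 p53 target genes in the 3 comparisons, with black points for the edgeR estimate, bars for its 95% interval, crosses for the fit without SN-011 replicate 2 and triangles for the fit with the Y-linked term. In PBS against WT the intervals of Ccng1, Gdf15 and Aen lie above 0, in SN-011 against PBS that of Sesn2 does, and in SN-011 against WT those of Eda2r and Aen do, while none of these estimates passed the adjusted threshold.

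The second comparison asks what SN-011 changed in Trex1-/- kidneys. For the p53 targets the 10 differences of SN-011 over PBS fell evenly about 0, 5 above and 5 below, with a median of 0.001 against -0.005 over all tested genes. Sesn2 and Eda2r had every SN-011 library above every PBS library, 2 of 10 where 16.1% of tested genes did not overlap. By edgeR's quasi-likelihood test no member and no gene at all (0% of 16646) passed an adjusted p of 0.05. At an unadjusted p under 0.05 there were 1905 genes (11.4%) and 1 member, while DESeq2 called 183 genes and edgeR's exact test 127, with no member among them.

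Sesn2 was higher in SN-011 than in PBS libraries by 0.59 on the log2 scale (SE 0.18, 95% interval 0.20 to 0.98, edgeR adjusted p = 0.281), and by 0.33 without SN-011 replicate 2 (edgeR adjusted p = 0.154). Relative to WT the SN-011 libraries overlapped, with a difference of 0.20 (95% interval -0.18 to 0.59, edgeR adjusted p = 0.593). Eda2r exceeded PBS by 0.77 (95% interval -0.10 to 1.63, edgeR adjusted p = 0.493) and WT by 1.02 (95% interval 0.16 to 1.89, edgeR adjusted p = 0.208), and the latter was 0.66 without WT replicate 2. The 2 comparisons that hold PBS share those 3 libraries, as the 2 that hold WT share theirs.

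For Cdkn1a the SN-011 group gave no usable mean. Its 46.1 CPM carried an SD of 37.4, and the difference from PBS was 0.03 on the log2 scale with a 95% interval of -0.92 to 0.97 (edgeR adjusted p = 0.989). Trp53inp1 had a mean of 55.6 CPM with an SD of 30.5, and a difference from PBS of 0.05 (95% interval -0.60 to 0.71, edgeR adjusted p = 0.965). Both rested on 1 library. Without SN-011 replicate 2, Cdkn1a was below PBS by a log2 difference of -0.89 (edgeR adjusted p = 0.0243) and Trp53inp1 by -0.50 (edgeR adjusted p = 0.0719), and 519 genes were called in place of 0. The 2 SN-011 libraries then left have no Y-linked transcripts and all 3 PBS libraries do, so treatment and the presence of Y-linked transcripts cannot be told apart in that fit.

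The remaining members differed little between SN-011 and PBS. The log2 difference was 0.09 for Mdm2, -0.12 for Ccng1, -0.02 for Bax, -0.21 for Phlda3, -0.26 for Gdf15 and -0.20 for Aen, and the edgeR adjusted p was 0.642 or more for each of these 6. Their 95% intervals reached -0.83 for Gdf15 and -0.77 for Phlda3, so changes of that size were not resolved at 3 libraries a group. The interval for Mdm2 was narrow, from -0.10 to 0.28.

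In SN-011 against WT, 8 of the 10 differences were above 0, with a median of 0.33 against -0.003 over all tested genes, and without SN-011 replicate 2 the median was 0.07. None of the 10 passed the adjusted threshold, which 1.28% of tested genes passed. Eda2r was the 1 member in 10 whose groups did not overlap, against 21.7% of tested genes, and 2 of 10 had an unadjusted p under 0.05, against 18% of tested genes. The second of these was Aen, higher by 0.38 on the log2 scale (95% interval 0.04 to 0.71, edgeR adjusted p = 0.231). Cdkn1a differed from WT by 0.47 with all libraries and by -0.45 without SN-011 replicate 2 (edgeR adjusted p = 0.616 and 0.174).

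SN-011 replicate 2 was the highest of the 9 libraries for 4 members, Cdkn1a, Mdm2, Trp53inp1 and Sesn2, and the lowest for Bax. Over all tested genes it was the highest for 16.4% and the lowest for 18.9%. Against the mean of the other SN-011 libraries Cdkn1a was 3.64-fold higher there, a log2 distance that 1.5% of tested genes reached, and Trp53inp1 was 2.39-fold higher, a distance that 4.58% reached. Sesn2 was 1.58-fold, Ccng1 1.28-fold, Aen 1.24-fold and Mdm2 1.151-fold higher, while Bax, Phlda3, Eda2r and Gdf15 lay below the other SN-011 libraries. The members thus lay on both sides of their group in this library.

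Other listed genes of the same library, chosen after their values were seen, also stood apart. Havcr1, which encodes the tubule injury marker KIM-1, was at 4.98 CPM against 1.58 and 0.415 CPM in the other SN-011 libraries, and it was highest of all in WT replicate 3. Vcam1, which encodes an adhesion molecule, was at 31.0 CPM against 16.8 CPM in each of the other SN-011 libraries, the highest of all 9 libraries. The other 2 injured tubule markers did not stand apart, as Lcn2 at 8.10 CPM and Krt20 at 1.27 CPM lay within the range of the other SN-011 libraries, which were at 8.38 and 7.23 CPM for Lcn2 and at 2.38 and 1.01 CPM for Krt20. Of the 10 glucocorticoid-response genes 8 were above the other SN-011 libraries in it, from Fkbp5 at 2.44-fold their mean to Mt1 at 1.02-fold. The share of all tested genes that lay above them in this library is not given here. Per1 at 110 CPM lay between them (101 and 132 CPM), and Mt2 at 0.405 CPM was below them (1.58 and 1.60 CPM). Ddit4, a stress-induced inhibitor of mTORC1, was 3.48-fold higher there. The summed level of the 10 glucocorticoid-response genes was 2419 CPM there and 1330 to 1943 CPM in the other 8 libraries. Their part in the levels of Cdkn1a and Trp53inp1 was not tested.

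**Figure D3:**
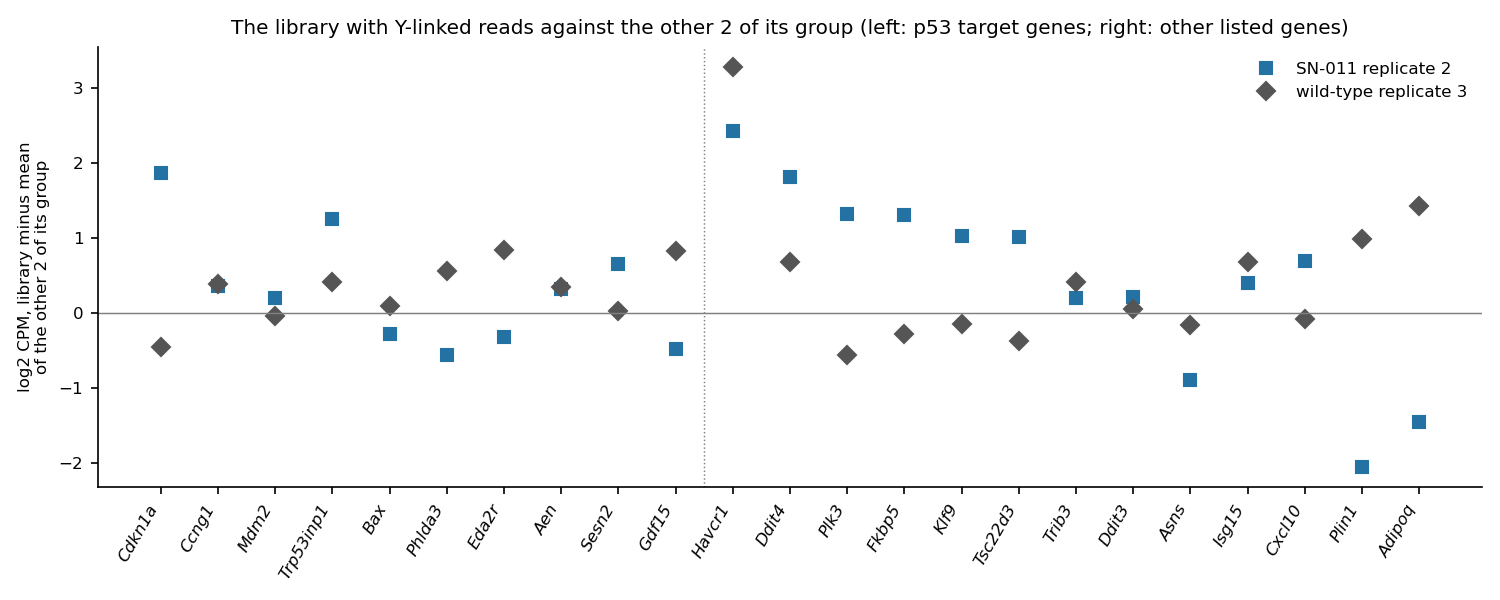
Difference in log2 CPM between the library with Y-linked transcripts and the mean of the other 2 of its group, for SN-011 replicate 2 and WT replicate 3, with the p53 target genes on the left and other genes, chosen after their values were seen, on the right. Cdkn1a stands at 1.87 and Trp53inp1 at 1.25 in SN-011 replicate 2, and WT replicate 3 lies below its group for Cdkn1a and above it for Gdf15.

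Trp53 itself, which encodes p53, was at 31.6 to 38.8 CPM in WT, 38.8 to 41.5 CPM in PBS and 34.6 to 40.5 CPM in SN-011 libraries. PBS differed from WT by 0.21 on the log2 scale (95% interval -0.01 to 0.43, edgeR adjusted p = 0.344). p53 is mainly controlled as a protein, which was not measured here. Mdm4, the partner of Mdm2 that blocks the activation domain of p53, was at 82.6 to 91.0 CPM in WT, 83.8 to 93.8 CPM in PBS and 102 to 114 CPM in SN-011 libraries. The SN-011 libraries were above all others, by 0.25 against PBS (edgeR adjusted p = 0.310) and by 0.30 against WT (edgeR adjusted p = 0.107). Of the 21 tested genes among 23 of the p53 core and its upstream kinases, 1 rose in PBS over WT, against 1.88% of all tested genes called. This was Atrip, which encodes the partner of the kinase ATR, at 14.4 to 16.1 CPM in WT, 40.2 to 48.4 CPM in PBS and 37.1 to 37.5 CPM in SN-011 libraries. It rose by 1.56 in PBS (SE 0.10, edgeR adjusted p = 4.9e-05) and by 1.29 in SN-011 over WT (edgeR adjusted p = 0.000321), and was called in all 19 other settings of both comparisons. Atrip shares 16.04% of its exonic bases with Trex1 on the same strand, the locus altered in these mice, so its count cannot be told apart from changes at that locus.

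The other p53 targets were grouped by role. Of 8 tested cell cycle genes 1 rose in PBS over WT, against 1.88% of all tested genes called, and this was Ccnd2, which encodes cyclin D2, by 0.61 in log2 units (SE 0.11, 95% interval 0.36 to 0.87, edgeR adjusted p = 0.0240). Its libraries were at 17.1 to 21.2 CPM in WT and 26.8 to 33.0 CPM in PBS. The call was lost, with differences of 0.51 to 0.64, without PBS replicate 1, PBS replicate 2, WT replicate 2 or WT replicate 3 (edgeR adjusted p from 0.0503 to 0.131). It was also lost once the Y-linked term was added (edgeR adjusted p = 0.0950) and with the replicate number as a term (edgeR adjusted p = 0.0573). Gtse1 of the same list was called higher in 3 of 18 other settings, among them that without WT replicate 3, at 1.96 (edgeR adjusted p = 0.0142). None of 10 cell death genes, 8 DNA repair genes or 12 tested metabolism and stress genes passed edgeR's quasi-likelihood test in PBS against WT, and the medians of these lists were 0.06, 0.20 and -0.03. The 2 with the smallest p in each list were Apaf1, the scaffold of the apoptosome, at 0.41 and Pidd1 at 0.38, Rrm2b, a subunit of ribonucleotide reductase, at 0.40 and Mgmt at 0.38, and Tigar, which lowers glycolytic flux, at 0.49 and Ak1 at -0.42. Their edgeR adjusted p was 0.116 or more. With the Y-linked term Ddit4 of the metabolism and stress list was called lower in PBS than in WT, at -1.36 (edgeR adjusted p = 0.0281). In SN-011 against PBS none of these 5 lists held a gene called by edgeR's quasi-likelihood test, and in SN-011 against WT only Atrip was called by it. In the latter comparison Ak1 was called lower in 3 of 19 other settings, and Mdm4 and Ccnd2 were called higher by DESeq2. Without SN-011 replicate 2, Ephx1 was called higher and Ddit4 lower than in WT (edgeR adjusted p = 0.0491 and 0.0298).

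Genes of proliferation that p53 lowers through p21 had higher values in PBS kidneys. All 13 differences of PBS over WT were above 0, 9 of 13 had groups that did not overlap, against 25.3% of tested genes, and the median was 1.58, but none passed the edgeR adjusted p of 0.05. With the Y-linked term all 13 were still above 0 and the median was 1.16. The genes at an unadjusted edgeR p under 0.05 were then 3 in place of 6. Ccna2 (cyclin A2) was at a difference of 1.58 and Ccnb2 (cyclin B2) at 1.90, with edgeR adjusted p of 0.157 and 0.178. Ccna2 was called in 4 of 19 other settings and Ccnb2 in 3 of 18. The summed level of the 13 was 29.1, 29.9 and 68.3 CPM in WT, 82.8, 78.7 and 107 CPM in PBS and 23.8, 46.0 and 97.3 CPM in SN-011 libraries, so the SN-011 group spanned nearly the whole range. SN-011 replicate 2, highest for Cdkn1a, was the middle one of its group for their summed level.

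**Figure D4:**
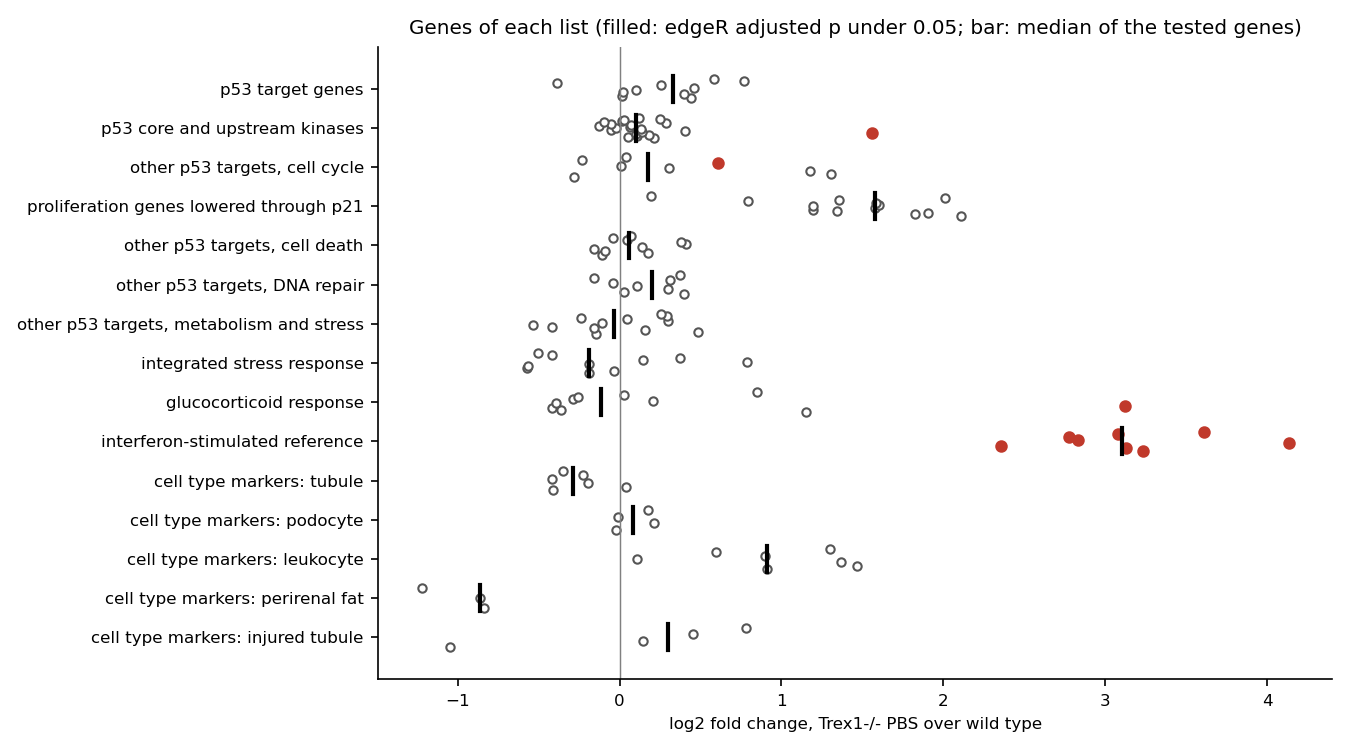
Log2 fold change of PBS over WT for each tested gene of the p53 lists, stress lists and cell type markers, 1 row a list, with filled points for an edgeR adjusted p under 0.05 and a bar at the median of each list. The interferon-stimulated genes have 8 filled points of 8, and the 10 p53 target genes have none.

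Stress lists that hold no gene of the p53 lists were read for comparison. The integrated stress response is driven by ATF4, which also induces Sesn2, a gene not in this list. Of its 10 tested genes, none was called by edgeR's quasi-likelihood test in any of the 3 comparisons. In other settings the 1 call was Phgdh, higher in SN-011 than in PBS without SN-011 replicate 2 (edgeR adjusted p = 0.0327). The list's median was -0.19 in PBS over WT and 0.38 in SN-011 over PBS. Nupr1 at -0.51 and Phgdh at -0.42 had the smallest p in PBS against WT (edgeR adjusted p = 0.210 and 0.362). Of 10 glucocorticoid-response genes 1 rose, against 1.88% of tested genes called in PBS against WT and 1.28% in SN-011 against WT. This was Zbtb16, a transcription factor, which rose by 3.12 in PBS over WT (SE 0.40, edgeR adjusted p = 0.00237) and by 3.80 in SN-011 over WT (edgeR adjusted p = 0.00343). It was called in all 19 other settings of both comparisons. Fkbp5, which encodes a chaperone of the glucocorticoid receptor, was at 1.152 in PBS over WT and 1.45 in SN-011 over WT (edgeR adjusted p = 0.156 and 0.0847). It was called higher in 4 of 19 other settings of the former, among them that without SN-011 replicate 2 (edgeR adjusted p = 0.0167), and in 5 of 19 of the latter, among them that without SN-011 replicate 3 (edgeR adjusted p = 0.0321). Sgk1 was called lower in PBS than in WT without WT replicate 3, and Errfi1 lower in SN-011 than in WT without SN-011 replicate 2.

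The interferon-stimulated genes give the scale of the response in the same kidneys. All 8 rose in PBS over WT, against 1.88% of tested genes called, with a median of 3.10, among them Isg15 by 3.24, Ifit1 by 3.13, Ifit3 by 2.36, Mx1 by 4.13, Oas1a by 2.83, Usp18 by 2.78, Irf7 by 3.08 and Cxcl10 by 3.61 (edgeR adjusted p of 0.000421 or less). In SN-011 against WT all 8 were still called, against 1.28% of tested genes, with a median of 1.98, where Mx1, Irf7 and Isg15 lost the call in some settings. Without WT replicate 1 these 3 were at 2.09, 1.68 and 1.79, and without WT replicate 2 at 2.32, 1.76 and 1.91, with edgeR adjusted p of 0.0533 to 0.131, and Mx1 was also lost without WT replicate 3 (2.19), SN-011 replicate 3 (2.02) or PBS replicate 1 (2.20). Mx1 was lost too by limma-voom (limma adjusted p = 0.125), and with only the 6 libraries compared Mx1 and Irf7 were at 2.20 and 1.84 (edgeR adjusted p = 0.0614 and 0.0508). In SN-011 against PBS the median was -1.15 and all 8 had every SN-011 library below every PBS library, against 16.1% of tested genes whose groups did not overlap. None was called by edgeR's quasi-likelihood test, while all 8 were called lower with no filter on low counts, by DESeq2 and by edgeR's exact test, and 7 of 8 were called lower without SN-011 replicate 2. The median of the 10 p53 targets in PBS over WT was thus 0.33 where that of the interferon genes was 3.10.

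Markers of cell types also differed in level between the libraries. In whole kidney, fewer cells of a type and less RNA per cell cannot be told apart. All 7 tested leukocyte markers of 8 were above 0 in PBS over WT and 6 had groups that did not overlap, against 25.3% of tested genes. None was called by edgeR's quasi-likelihood test, while 1 was called higher without SN-011 replicate 2, 2 without SN-011 replicate 1, and 3 by DESeq2, by edgeR's exact test, with no filter on low counts and with only the 6 libraries compared. Ptprc (CD45) and Adgre1 (F4/80) were at differences of 0.91 and 0.90 (edgeR adjusted p = 0.0557 and 0.133), and were called in 7 and 5 of 19 other settings. The leukocyte markers' summed level was 21.9 to 29.8 CPM in WT, 42.6 to 55.0 CPM in PBS and 21.5 to 46.0 CPM in SN-011 libraries, and the T cell marker Cd3e was at most 3.85 CPM. The 6 tubule markers summed to 17240 to 19000 CPM in WT and 15650 to 16570 CPM in PBS, with Lrp2 at -0.41 and Slc12a1 at -0.42 (edgeR adjusted p = 0.213 and 0.253). The part of these shifts in the levels of the p53 targets was not tested.

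Markers of injured tubule summed to 19.5 to 58.6 CPM in WT, 35.3 to 49.4 CPM in PBS and 25.5 to 45.4 CPM in SN-011 libraries, and the highest was WT replicate 3. Vcam1 was at 0.78 in PBS over WT and Havcr1 at -1.04 (edgeR adjusted p = 0.126 and 0.639). Vcam1 was called higher in 5 of 19 other settings, among them that without SN-011 replicate 2 (edgeR adjusted p = 0.00526). The difference of Lcn2 was 0.14 and ran from -0.45 with the Y-linked term to 1.47 without WT replicate 3, where it was called (edgeR adjusted p = 0.0157). The difference of Havcr1 ran from -2.16 with the Y-linked term, where it was called (edgeR adjusted p = 0.0204), to 0.97 without WT replicate 3. Perirenal fat markers summed to 51.9 to 170 CPM in WT, 25.2 to 76.2 CPM in PBS and 17.1 to 74.8 CPM in SN-011 libraries, with the lowest in SN-011 replicate 2, and Plin1 and Cfd were at -1.22 and -0.86 in PBS over WT (edgeR adjusted p = 0.389 and 0.508). The 4 podocyte markers summed to 347 to 383 CPM in WT, 361 to 410 CPM in PBS and 388 to 473 CPM in SN-011 libraries. The SN-011 sums thus lay above the WT ones, while for each of the 4 markers alone these groups overlapped. Of the 4, 2 were above 0 and 2 below in PBS over WT, with Wt1 at 0.18 (edgeR adjusted p = 0.611). All 4 were above 0 in SN-011 over WT, with Wt1 at 0.34 (edgeR adjusted p = 0.262), and none was called in either comparison.

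Over the 9 libraries, the gene whose standardized log2 CPM lay nearest to that of Cdkn1a was Fcgr2b, an inhibitory Fc receptor, at a root mean square distance of 0.349 among 14837 genes with a mean of at least 1 CPM. The next were 6430562O15Rik at 0.358, Cdk6, a G1 kinase, at 0.371, Morc4 at 0.379 and Psmd11, a proteasome subunit, at 0.381. Each of these 5 was highest in SN-011 replicate 2. Of the members, Trp53inp1 was the most like Cdkn1a with a distance of 0.601 and rank 137, followed by Mdm2 at 0.941, while Bax at 1.79 and Phlda3 at 1.74 were the least like it. These distances are a description of 9 libraries, and 1 library that stands apart weighs heavily in them.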

How the data were processed

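The deposited values are counts of read pairs per gene for 9 libraries of polyA-selected RNA. Per the study's methods the authors trimmed reads with Trimmomatic, aligned them with hisat2 and counted uniquely mapped pairs with featureCounts, and the submitters' processing notes name mm10. Versions, annotation and strand setting are not given in the sources used here. Of 54532 identifiers 54495 matched GENCODE vM21 (GRCm38), which gave symbols, positions and exonic lengths.

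The test was edgeR's quasi-likelihood F test (edgeR 4.0.16 in R 4.3.3). filterByExpr removed genes of low count (minimum count 10, minimum total 15), TMM scaled the libraries, and the fit held all 9 libraries with 3 group means alone. A gene was called at a Benjamini-Hochberg adjusted p under 0.05 over the 16646 tested genes. The standard error was derived from the F statistic. The study's methods name edgeR's negative binomial test. edgeR's exact test was run as an alternative beside DESeq2 1.42.0 and limma 3.58.1. The fit was also run on simulated counts, and the outcome is not given here. Libraries of a group were taken as separate samples, and p-values measure the spread between them.

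The members, lists and tests were chosen with earlier results of these data known. The members, Trp53, Mdm4 and Atrip are always named, from every other list each called gene or, with none, the 2 of smallest p in PBS against WT, and the 5 genes nearest to Cdkn1a. Genes named outside this rule were chosen after their values were seen. Some marker genes that the rule would name are not reported here. In Y-linked term fits, a library above 10 CPM of Y-linked transcripts was marked.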

Additional observations from a re-analysis of the deposited data

Results flagged for a closer look

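Within libraries split by the presence of Y-linked transcripts, the mean difference between SN-011 and WT had opposite signs for 5 of the 10 p53 target genes, Cdkn1a, Bax, Phlda3, Sesn2 and Gdf15, as for 38.4% of tested genes. For 2 of them, Cdkn1a and Gdf15, the libraries without such transcripts also did not overlap between the groups, while for Bax, Phlda3 and Sesn2 they did. Both features together were found in 16.7% of tested genes, a share near that of the members. This split is not a group of the study, and the difference between its parts was not tested, since only 1 SN-011 and 1 WT library carry such transcripts. For Cdkn1a the SN-011 library with Y-linked transcripts exceeded the WT library with them, 89.2 against 26.7 CPM, by 1.74 on the log2 scale. Without Y-linked transcripts both SN-011 libraries (22.01 and 27.0 CPM) were below both WT libraries (34.0 and 39.0 CPM), by a mean log2 difference of -0.58. For Gdf15 the order was the other way. With Y-linked transcripts SN-011 was below WT, 16.03 against 20.7 CPM, by a log2 difference of -0.36, and without them SN-011 (28.0 and 18.0 CPM) was above WT (10.5 and 12.8 CPM) by 0.95. No PBS library lacks Y-linked transcripts, so the same split could not be made for PBS.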

How the results depend on the processing

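Across 19 other settings, 528 of 567 differences of the 10 p53 target genes kept their direction and side of the threshold. A further 7 kept their direction and passed it newly, and 32 reversed, in 16 of 30 gene and comparison pairs. Among the reversed, Cdkn1a in SN-011 against PBS also passed it without SN-011 replicate 2 (edgeR adjusted p = 0.0243). In PBS against WT, 313 genes were called, with 707 under no filter on low counts, 726 by DESeq2, 683 by edgeR's exact test, 751 with only the 6 libraries compared and 198 with the Y-linked term, and 153 to 774 when 1 library was left out. Members called were 0, with 2 (Aen and Gdf15) under no filter and 1 (Aen) by DESeq2, by the exact test and with 6 libraries, and 0 to 1 when 1 library was left out. In SN-011 against PBS, 0 genes were called, with 127 under no filter, 183 by DESeq2, 127 by the exact test and 0 to 519 when 1 library was left out (519 without SN-011 replicate 2, 22 without SN-011 replicate 3, 1 without PBS replicate 2), and members 0 to 1. In SN-011 against WT, 213 were called, with 607 under no filter, 806 by DESeq2, 601 by the exact test, 43 with 6 libraries, 656 with the Y-linked term and 38 to 376 when 1 library was left out. The cause of these shifts was not tested.

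Reversed differences in PBS against WT, in log2, were -0.22 for Cdkn1a, -0.11 for Trp53inp1 and -0.0441 for Mdm2 with the Y-linked term, and -0.0108 for Mdm2 and -0.0052 for Bax with upper-quartile factors. In SN-011 against PBS the Y-linked term gave 0.12 for Ccng1 and 0.0097 for Aen, and limma-voom gave -0.26 for Cdkn1a and -0.0769 for Trp53inp1. Leaving out 1 library gave, in PBS against WT, -0.0184 to 0.0535 for Mdm2, -0.0431 to 0.0485 for Bax, -0.15 to 0.28 for Phlda3 and -0.10 to 0.59 for Eda2r. It gave, in SN-011 against PBS, -0.89 to 0.36 for Cdkn1a, -0.108 to 0.0603 for Bax and -0.50 to 0.28 for Trp53inp1. In SN-011 against WT it gave -0.45 to 0.81 for Cdkn1a, -0.0947 to 0.0786 for Bax, -0.36 to 0.0731 for Phlda3, -0.0418 to 0.74 for Trp53inp1 and -0.0581 to 0.34 for Sesn2.

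Same-numbered libraries of different groups deviated together with r from -0.294 to 0.242. Between PBS and SN-011 libraries the same-numbered pairs had r of 0.198, 0.242 and 0.098, each the highest for its libraries. In comparisons that hold WT, not every library correlated best with its own number. Whether the numbers pair PBS and SN-011 libraries was not tested, and the main fit did not pair them. The replicate block gave 312, 0 and 231 called genes in the 3 comparisons, and -0.20 for Cdkn1a and -0.0154 for Trp53inp1 in SN-011 against PBS. Under it Ccnd2 lost its call in PBS against WT, at 0.61 (edgeR adjusted p = 0.0573), while Ptprc and Ccna2 were called higher and Plin1 lower, and in SN-011 against WT Plin1 and Cfd were called lower.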
